A study of Mus musculus with 20 samples.

Results

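The genes of neutrophil alarmins, receptors and granule proteins, 9 in all, were followed in the adipose tissue of mice that lost α4 in adipocytes. They are S100a8, S100a9, Fpr1, Fpr2, Ngp, Camp, Ltf, Mpo and Elane, taken by gene symbol from the 25219 genes of the deposited table, where all 9 were present. Bulk RNA-seq was made from inguinal white adipose tissue (iWAT) and brown adipose tissue (BAT) of male mice, with 5 libraries in each of 4 groups. Ai-α4KO mice carried floxed α4 alleles and a tamoxifen-inducible Cre driven by the Adiponectin promoter. Recombination was thus directed to adipocytes and not to leukocytes. Control mice, labelled WT, carried the floxed alleles without the Cre. All groups received tamoxifen, in 5 injections over 6 days from 2 months of age, and tissues were taken 1 week after recombination. The question asked of these libraries was how early loss of α4, an essential partner of protein phosphatase 2A, changed gene expression in the adipose depots.

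Neutrophils store their antimicrobial proteins in granules that are filled in sequence while the cells mature in the bone marrow. Primary (azurophil) granules are filled first, at the promyelocyte stage, with myeloperoxidase (Mpo) and neutrophil elastase (Elane). Secondary (specific) granules follow at the myelocyte stage with lactoferrin (Ltf), cathelicidin (Camp) and neutrophilic granule protein (Ngp). The mRNAs of the granule proteins are largely lost by the time the cell enters the blood, whereas the mRNAs of the calcium-binding alarmins S100a8 and S100a9 and of the formyl peptide receptors Fpr1 and Fpr2 are abundant in circulating and tissue neutrophils. S100A8 and S100A9 pair to form calprotectin, which also signals through Toll-like receptor 4. The receptors guide neutrophils and monocytes towards formylated peptides of bacteria and damaged mitochondria. In adipose tissue, neutrophils are scarce at rest and are among the early cells to enter under stress.

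The libraries held 24023371 to 50384446 gene counts, so that 3 counts, the limit that a count of 0 allows, were worth 0.0513 to 0.141 CPM. CPM, a relative abundance, are counts scaled to a common total after TMM normalization. The floor covers counting error only. Igbp1, which encodes α4, fell in both tissues of Ai-α4KO mice, with log2 fold changes of -2.65 ± 0.09 (SE) in iWAT and -2.5 ± 0.17 in BAT. The adipocyte marker Adipoq was present in every group and fell by 2.21 and 2.15 on the log2 scale. Library 1 of Control iWAT had the highest value of the 20 libraries for Ngp, Camp, Ltf, Mpo and Elane, although Ltf was nearly as high in Ai-α4KO iWAT library 2. Within Control iWAT, library 1 held 96.8% of the counts of Ngp in Control iWAT, 96.5% of those of Camp, 91.7% of those of Ltf, 99.7% of those of Mpo and 73.8% of those of Elane. For this reason, the fitted values of these genes in iWAT are given with and without it. The B cell markers were also high in this library, at a summed level of 435 CPM, and in Control iWAT library 4, at 171 CPM, against 5.96 to 12.6 CPM in the other 8 iWAT libraries.

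The 9 genes lie in small neighbourhoods of mm10. S100a8 (chr3:90669071-90670034, plus strand) and S100a9 (chr3:90692630-90695721, minus strand) are 22595 bases apart. Fpr1 (chr17:17876471-17883939, minus strand) and Fpr2 (chr17:17887824-17893952, plus strand) are divergent neighbours with 3884 bases between them. Camp, Ngp and Ltf follow each other on chromosome 9, with 570351 bases between Camp and Ngp and 596279 between Ngp and Ltf. Mpo is on chromosome 11 and Elane on chromosome 10. The 250 bases before the transcription start were taken from RefSeq on GRCm38.p6 for all 9 genes, and each window ended at the gene start of the deposited table. Those of the 4 genes that rose in Ai-α4KO mice are shown with that of Ngp, a marrow-stage gene. Capitals mark matches, on either strand, to TATAAA (the box read by the basal promoter machinery), GGAAGT (core of ETS factors such as PU.1), TTGCNNAA (C/EBP) and TTCNNNGAA (STAT), none of which overlapped another.
S100a8: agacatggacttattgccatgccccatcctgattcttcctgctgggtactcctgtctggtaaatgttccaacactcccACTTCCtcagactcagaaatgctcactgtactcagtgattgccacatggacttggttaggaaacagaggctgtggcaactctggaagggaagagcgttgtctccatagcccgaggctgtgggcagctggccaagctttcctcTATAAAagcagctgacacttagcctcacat
S100a9: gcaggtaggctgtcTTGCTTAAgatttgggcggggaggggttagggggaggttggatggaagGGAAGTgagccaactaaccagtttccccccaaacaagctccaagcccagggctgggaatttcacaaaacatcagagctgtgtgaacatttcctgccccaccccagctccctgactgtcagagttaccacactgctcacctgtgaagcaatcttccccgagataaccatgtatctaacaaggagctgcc
Fpr1: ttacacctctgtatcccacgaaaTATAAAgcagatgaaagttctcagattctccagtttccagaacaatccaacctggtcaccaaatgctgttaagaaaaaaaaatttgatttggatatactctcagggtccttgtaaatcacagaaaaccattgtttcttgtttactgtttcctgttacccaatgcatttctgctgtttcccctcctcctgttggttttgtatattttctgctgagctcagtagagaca
Fpr2: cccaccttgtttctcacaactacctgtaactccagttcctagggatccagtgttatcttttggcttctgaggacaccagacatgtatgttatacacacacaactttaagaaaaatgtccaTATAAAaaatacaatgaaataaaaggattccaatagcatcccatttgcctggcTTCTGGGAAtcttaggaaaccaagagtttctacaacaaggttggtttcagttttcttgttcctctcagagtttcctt
Ngp: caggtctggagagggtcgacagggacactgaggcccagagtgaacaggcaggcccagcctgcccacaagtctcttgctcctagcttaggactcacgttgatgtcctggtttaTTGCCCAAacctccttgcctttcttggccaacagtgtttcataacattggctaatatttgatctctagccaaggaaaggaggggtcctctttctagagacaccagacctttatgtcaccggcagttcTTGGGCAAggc
The windows were chr3:90668821-90669070 (plus) for S100a8, chr3:90695722-90695971 (minus) for S100a9, chr17:17883940-17884189 (minus) for Fpr1, chr17:17887574-17887823 (plus) for Fpr2 and chr9:110419558-110419807 (plus) for Ngp. Of 32851 windows of the same length, 12.4% held TATAAA, 19.7% GGAAGT, 9.56% TTGCNNAA and 7.02% TTCNNNGAA. Among the 9 genes, TATAAA was found before S100a8, Fpr1 and Fpr2, and it began 30 bases before the start of S100a8 but 227 bases before that of Fpr1 and 130 bases before that of Fpr2. GGAAGT or its reverse complement was found before S100a8, S100a9, Mpo and Elane, TTGCNNAA or its reverse complement before S100a9, Ngp and Ltf, and TTCNNNGAA before Fpr2. The Ngp window held 2 such C/EBP matches and the other marrow-stage genes at most 1. No motif of the set was found in all of the 4 genes that rose. A match is a description of the letters and was not tested as a binding site.

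The alarmins and the receptors rose in both tissues of Ai-α4KO mice. Of the granule genes among the 9, Ngp, Ltf and Elane passed the low-count filter in iWAT and Ltf alone in BAT. None of these was called higher, and their difference from the alarmins and receptors was not tested. Called genes had an adjusted p under 0.01 and a change of 2-fold or more. Of the 9 genes, 7 passed the filter on low counts in iWAT and 5 in BAT. In iWAT, 4 of the 7 were called higher and 1 lower, where 11.3% and 10.7% of all 14604 genes tested were called higher and lower. In BAT, 4 of the 5 were called higher, where 18.2% of all 14344 genes tested were called higher. Control BAT held only 2 to 10 counts of Fpr1 and 8 to 18 of Fpr2. With a filter of at least 10 counts in every library, these 2 genes dropped out and 2 were called higher. None of the 5 was called lower in BAT by edgeR, DESeq2 or limma, and none had an unadjusted p below 0.05 in that direction, where 13.3% of all genes tested were called lower. The 4 genes called higher, S100a8, S100a9, Fpr1 and Fpr2, are the same in the 2 tissues. In bulk tissue, fewer or more cells of a type and less or more RNA per cell cannot be told apart.

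**Figure D1:**
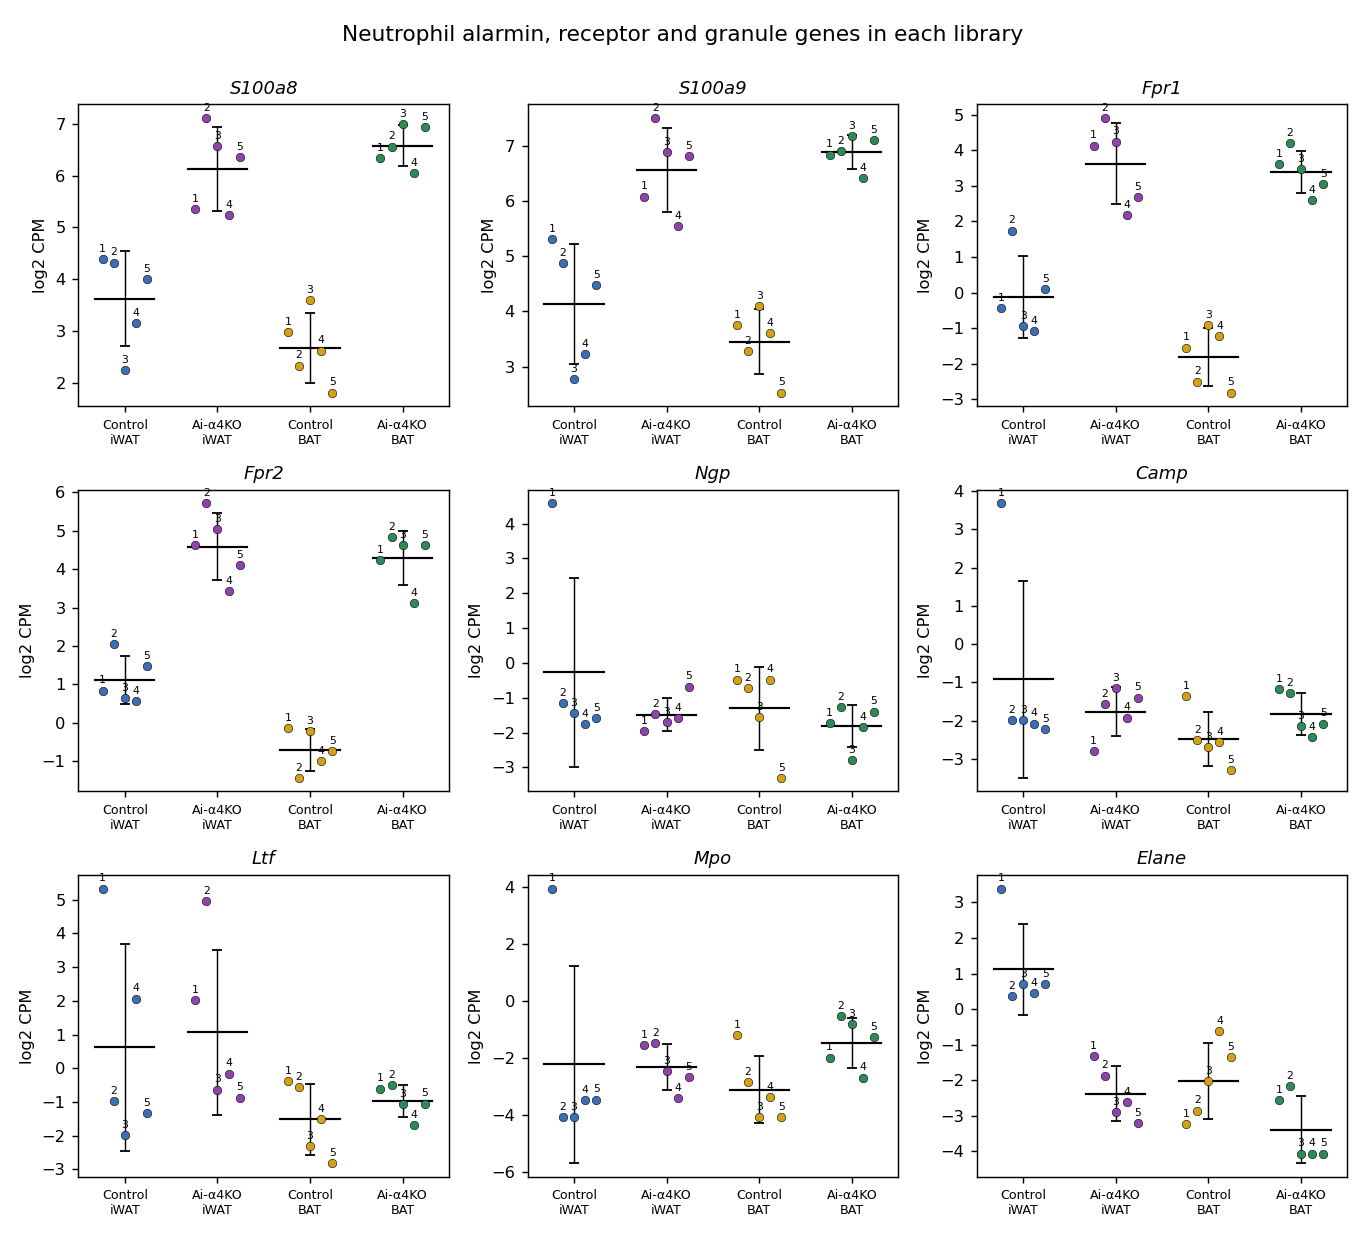
Log2 CPM (vertical axes) of each of the 9 genes in the 20 libraries, grouped by tissue and genotype; points are libraries with their number, bars the group mean and whiskers the SD. S100a8, S100a9, Fpr1 and Fpr2 were higher in every Ai-α4KO library than in every Control library of the same tissue, while Ngp, Camp and Mpo were high only in library 1 of Control iWAT.

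S100a8, one chain of calprotectin, was at 20.9, 19.9, 4.66, 8.84 and 16 CPM in libraries 1 to 5 of Control iWAT and at 40.7, 138, 94.9, 37.5 and 82.2 CPM in those of Ai-α4KO iWAT. In BAT it was at 7.8, 4.98, 12, 6.11 and 3.45 CPM in Control and at 80.7, 94.3, 128, 66.1 and 123 CPM in Ai-α4KO. Every Ai-α4KO library exceeded every Control library of its tissue. The rise was 6.03-fold in iWAT (log2 fold change 2.59 ± 0.47 (SE), adjusted p = 0.000808) and 14.5-fold in BAT (3.86 ± 0.33, adjusted p = 1.09e-06). The exact permutation test over libraries gave p = 0.0079 in each tissue, two-sided, the smallest that 5 against 5 libraries can give. Groups that did not overlap, Ai-α4KO above Control, were found for 17.9% of all genes tested in iWAT and 23.3% in BAT.

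S100a9, the partner chain, was at 39.7, 29.5, 6.75, 9.34 and 22.2 CPM in Control iWAT and at 67.7, 181, 118, 46.6 and 112 CPM in Ai-α4KO iWAT. In BAT it was at 13.4, 9.64, 17, 12.1 and 5.7 CPM in Control and at 114, 120.0, 145, 84.8 and 137 CPM in Ai-α4KO. The groups again did not overlap in either tissue, and the libraries that were high for one alarmin were high for the other. The rise was 5.26-fold in iWAT (2.39 ± 0.51, adjusted p = 0.00227) and 10.4-fold in BAT (3.39 ± 0.27, adjusted p = 6.26e-07). Per length, the 2 chains were at like levels, with a median ratio of S100a9 to S100a8 FPKM of 1.08 in Control iWAT, 0.983 in Ai-α4KO iWAT, 1.28 in Control BAT and 0.951 in Ai-α4KO BAT. Over the 20 libraries, after the group means were removed, log2 CPM of the 2 genes had a Pearson r of 0.9592, a description of libraries that share their depth and normalization. In Ai-α4KO mice the mean FPKM of S100a8 was 208 ± 111 (SD, n = 5) in iWAT and 229 ± 62.1 in BAT, and that of S100a9 was 207 ± 104 and 210.0 ± 42.4, well above the other 7 genes.

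Fpr1, the receptor with high affinity for formylated peptides, rose in both tissues. It was at 0.678, 3.29, 0.463, 0.411 and 1.01 CPM in Control iWAT and at 17.5, 29.7, 18.9, 4.44 and 6.36 CPM in Ai-α4KO iWAT. In BAT the Control libraries held only 2 to 10 counts of Fpr1 (0.0832 to 0.469 CPM), against 192 to 671 counts in the Ai-α4KO libraries (12.2, 18.2, 11, 6.02 and 8.21 CPM). The groups did not overlap in either tissue. The rise was 14.3-fold in iWAT (3.83 ± 0.71, adjusted p = 0.000843) and 42.1-fold in BAT (5.4 ± 0.44, adjusted p = 7.98e-07). Control iWAT library 2 stood above the other 4 Control libraries for Fpr1, and without it the iWAT log2 fold change was 4.68.

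Fpr2, which also binds serum amyloid A and annexin A1, was at 1.74, 4.06, 1.5, 1.41 and 2.72 CPM in Control iWAT and at 24.8, 52.2, 33.2, 10.6 and 17.1 CPM in Ai-α4KO iWAT. In BAT it was at 0.846, 0.311, 0.798, 0.439 and 0.541 CPM in Control and at 18.7, 28.4, 24.8, 8.59 and 24.8 CPM in Ai-α4KO. Library 2 was the highest and library 4 the lowest of the Ai-α4KO libraries in both tissues. The rise was 13.1-fold in iWAT (3.71 ± 0.47, adjusted p = 6.33e-05) and 36.3-fold in BAT (5.18 ± 0.38, adjusted p = 3.64e-07). Per length, Fpr2 was above Fpr1, with median FPKM ratios of 2.75 in Control iWAT, 1.8 in Ai-α4KO iWAT, 2.72 in Control BAT and 1.59 in Ai-α4KO BAT. The ratios of Control and Ai-α4KO libraries overlapped in both tissues. Within groups, log2 CPM of the 2 receptors had an r of 0.8373 over the 20 libraries, and S100a8 and Fpr1 an r of 0.6454.

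The rises had larger estimates in BAT, but the difference between the tissues did not pass the test. In the interaction of genotype and tissue, the log2 fold change in BAT minus that in iWAT was 1.29 ± 0.58 for S100a8 (adjusted p = 0.136), 1.02 ± 0.59 for S100a9 (0.25), 1.6 ± 0.86 for Fpr1 (0.214) and 1.51 ± 0.6 for Fpr2 (0.093). None of the 9 genes was called by edgeR, DESeq2 or limma, where edgeR called 4.86% of the 15230 genes tested. An unadjusted edgeR p below 0.05 was found for 4 of the 9, namely S100a8, Fpr2, Camp and Mpo. The share of all genes tested at that level is not given here, so these 4 are not read as an excess. Without Control iWAT library 1 the interaction of Camp was 0.35 ± 0.7 (adjusted p = 0.78) and that of Mpo -1.19 ± 1.37 (adjusted p = 0.604). That of Fpr1 was 0.76 ± 0.74 (adjusted p = 0.519) without Control iWAT library 2. In Ai-α4KO mice the libraries of the 2 tissues overlapped for all of S100a8, S100a9, Fpr1 and Fpr2, with medians of 82.2 CPM in iWAT and 94.3 CPM in BAT for S100a8. In Control mice the 4 genes had lower estimates in BAT, where Fpr2 alone passed both thresholds, with a log2 difference of -2.0 ± 0.39 (adjusted p = 0.00129). By limma on log2(FPKM + 1) it was -0.89 ± 0.17, short of a 2-fold difference, and Fpr2 did not pass a filter of at least 10 counts in every library, so that the call was lost in both. Control BAT minus Control iWAT was -1.08 ± 0.43 for S100a8 (adjusted p = 0.0535), -0.94 ± 0.46 for S100a9 (0.108) and -2.18 ± 0.67 for Fpr1 (0.0184), or -1.32 ± 0.5 (0.048) for Fpr1 without Control iWAT library 2. Together with Elane, Fpr2 made 2 of 7 genes called lower in Control BAT, where 14.7% of all genes tested were called lower. The comparisons share the Control libraries.

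Most of the measured genes of mature neutrophils rose. Of 13 surface and cytosol genes tested in each tissue, 10 rose in iWAT and all 13 in BAT, where 11.3% and 18.2% of all genes tested were called higher. Median log2 fold changes were 2.68 and 3.86, against 0.01 and -0.03 over all genes tested. Retnlg and Wfdc21 of this list were close between the iWAT groups, at 4.51 ± 2.94 (SD, n = 5) and 65.9 ± 15.2 CPM in Control and 5.41 ± 0.966 and 77.5 ± 25.2 CPM in Ai-α4KO mice. The lectin receptors Clec4e and Clec4d, which myeloid cells also carry, led the list with log2 fold changes of 4.39 ± 0.62 and 3.87 ± 0.48 in iWAT and 5.4 ± 0.28 and 5.23 ± 0.32 in BAT. Within groups, S100a8 was most like Stfa2l1, a stefin of neutrophils (r = 0.899), Gm5483 (0.855) and the chemokine receptor Cxcr2 (0.79), and S100a9 was most like the same 3 genes. Fpr1 was most like Clec4e (0.852), Clec4d (0.81) and Entpd3 (0.799), and Fpr2 was most like Il1rn (0.833), which encodes the interleukin-1 receptor antagonist, Rnf149 (0.826) and Trem1 (0.816), an amplifying receptor of neutrophils and monocytes.

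Most of the other secondary and tertiary granule genes rose. Of 9 other secondary and tertiary granule genes tested, 5 rose in iWAT and all 9 in BAT, with median log2 fold changes of 1.7 and 3.72. Without Control iWAT library 1, 7 of the 9 rose in iWAT. Of all genes tested, 11.3% were called higher in iWAT and 18.2% in BAT. Hp, of this list, was already at a mean of 2150 CPM in Control iWAT and 1830 CPM in Control BAT. Lcn2, a siderophore-binding lipocalin that adipocytes and macrophages also make, rose by 4.95 ± 0.6 in iWAT and 7.12 ± 0.41 in BAT, and Chil3, a chitinase-like protein also made by macrophages, by 4.52 ± 0.69 and 5.21 ± 0.46. Of the other primary granule genes, 2 passed the filter in iWAT and 1 in BAT, and the single change called was a fall of Prtn3 in iWAT. The plot of neutrophil genes by compartment shows these genes beside the 9.

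**Figure D2:**
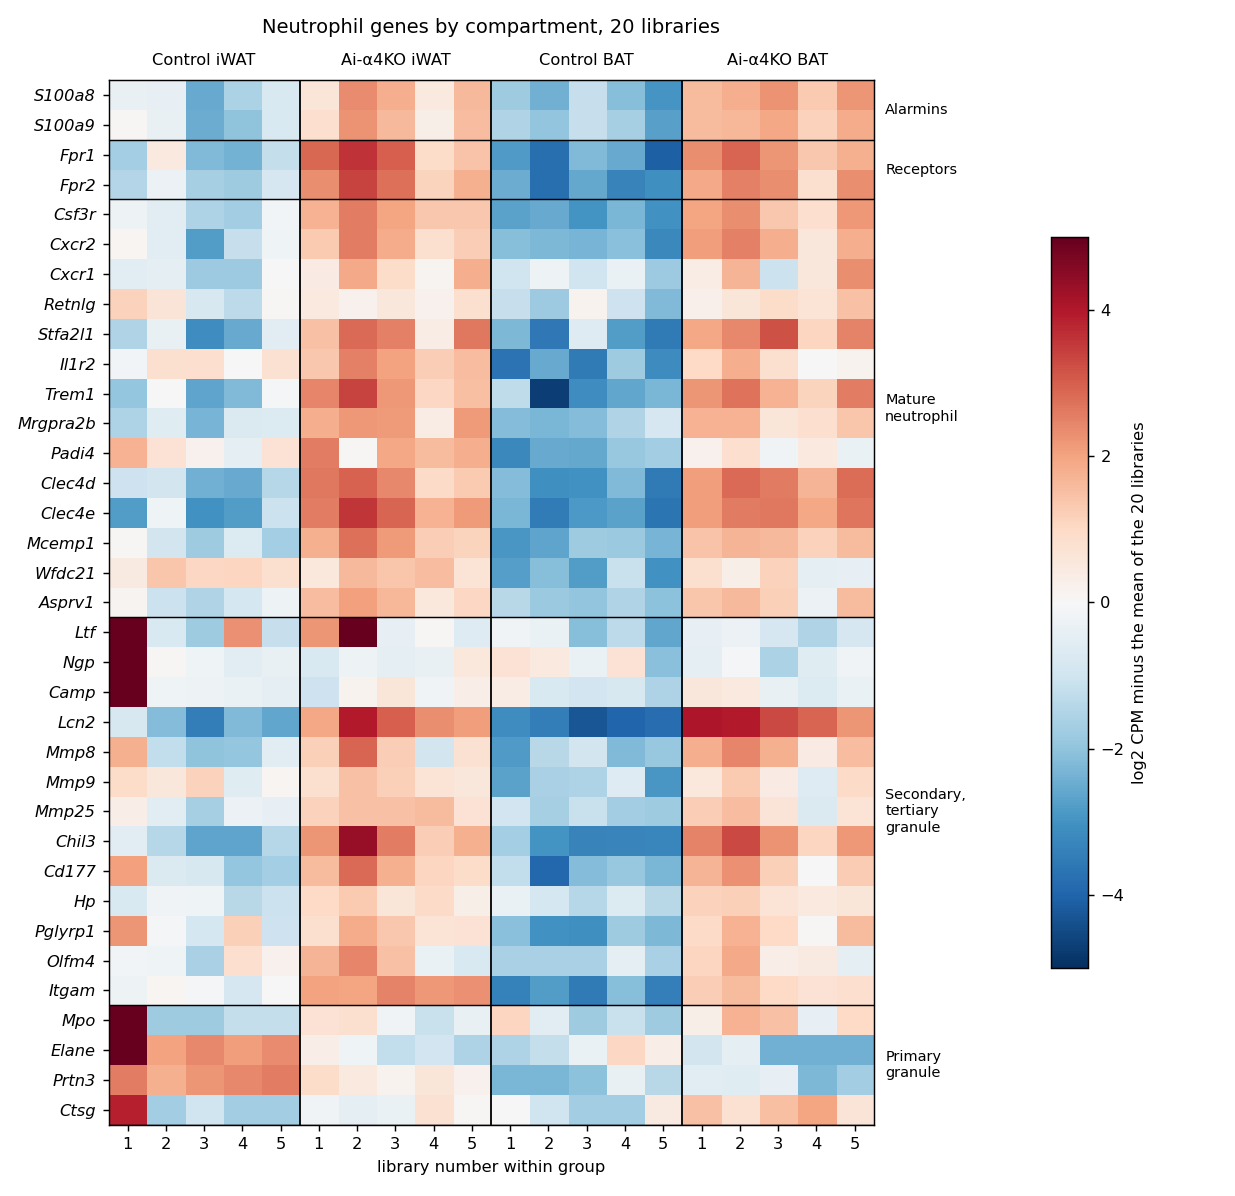
Log2 CPM minus the mean of the 20 libraries (colour, limited to 5 on either side) for the 9 genes and the listed neutrophil genes that passed the low-count filter over all libraries, 35 genes in rows by compartment, libraries in columns by group. S100a8, S100a9, Fpr1 and Fpr2 were higher in every Ai-α4KO library than in every Control library of the same tissue, the mature neutrophil genes were mixed in iWAT, where 10 of 13 tested rose, and Ltf, Ngp, Camp, Mpo and Elane had their highest value in library 1 of Control iWAT.

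Ngp, a cathelin-like protein of secondary granules, had 1127 counts in library 1 of Control iWAT and 12, 8, 8 and 9 in libraries 2 to 5. It had 7, 14, 10, 16 and 23 counts in Ai-α4KO iWAT, 14, 14, 6, 18 and 1 in Control BAT and 9, 13, 2, 7 and 9 in Ai-α4KO BAT. Apart from the first library, Ngp did not exceed 0.658 CPM anywhere. The log2 fold change in iWAT was -3.91 ± 1.39 (adjusted p = 0.033) with all libraries and 0.12 ± 0.39 (adjusted p = 0.815) without Control library 1. In BAT, Ngp did not pass the filter, and a fit without filter gave -0.82 ± 0.59 (adjusted p = 0.261).

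Camp, the precursor of the cathelicidin peptide CRAMP, had 601 counts in library 1 of Control iWAT and 5 or 6 in each of the other 4. Its counts were 3 to 16 in Ai-α4KO iWAT, 1 to 7 in Control BAT and 4 to 14 in Ai-α4KO BAT, and the groups overlapped. Camp passed the filter in neither tissue. For iWAT the fit without filter gave a log2 fold change of -3.29 ± 1.32 (adjusted p = 0.0636) with all libraries and of 0.62 ± 0.5 (adjusted p = 0.348) without Control library 1, so that the sign rested on that library. For BAT it gave 0.81 ± 0.58 (adjusted p = 0.258). Ngp and Camp had a within-group r of 0.9221 over the 20 libraries and of 0.5988 without Control iWAT library 1.

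Ltf, the iron-binding protein of secondary granules that glandular epithelia also secrete, varied widely between libraries of both iWAT groups. It was at 40.1, 0.451, 0.193, 4.14 and 0.337 CPM in Control iWAT and at 3.99, 31.1, 0.588, 0.837 and 0.489 CPM in Ai-α4KO iWAT. In BAT all 10 libraries were between 0.0832 and 0.705 CPM. For iWAT the log2 fold change was -0.21 ± 1.51 (adjusted p = 0.918) with all libraries and 2.59 ± 1.44 (adjusted p = 0.154) without Control library 1. For BAT it was 0.36 ± 0.51 (adjusted p = 0.559). Ai-α4KO iWAT library 2, with 1458 counts of Ltf, held only 14 of Ngp and 13 of Camp, whereas Control iWAT library 1 was high in all 3.

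The genes most like Ltf were not neutrophil genes. They were Csn3 (r = 0.924), the kappa-casein of milk, and the epithelial keratins Krt18 (0.91) and Krt4 (0.909), and without Control iWAT library 1 the 3 values were 0.872, 0.876 and 0.876. Krt18 was at 21.9 and 7.49 CPM in libraries 1 and 4 of Control iWAT and at 16.1 and 33.2 CPM in libraries 1 and 2 of Ai-α4KO iWAT, the 4 libraries with the highest Ltf. In the other 6 iWAT libraries Krt18 was at 0.116 to 1.0 CPM. Their part in the Ltf values was not tested.

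**Figure D3:**
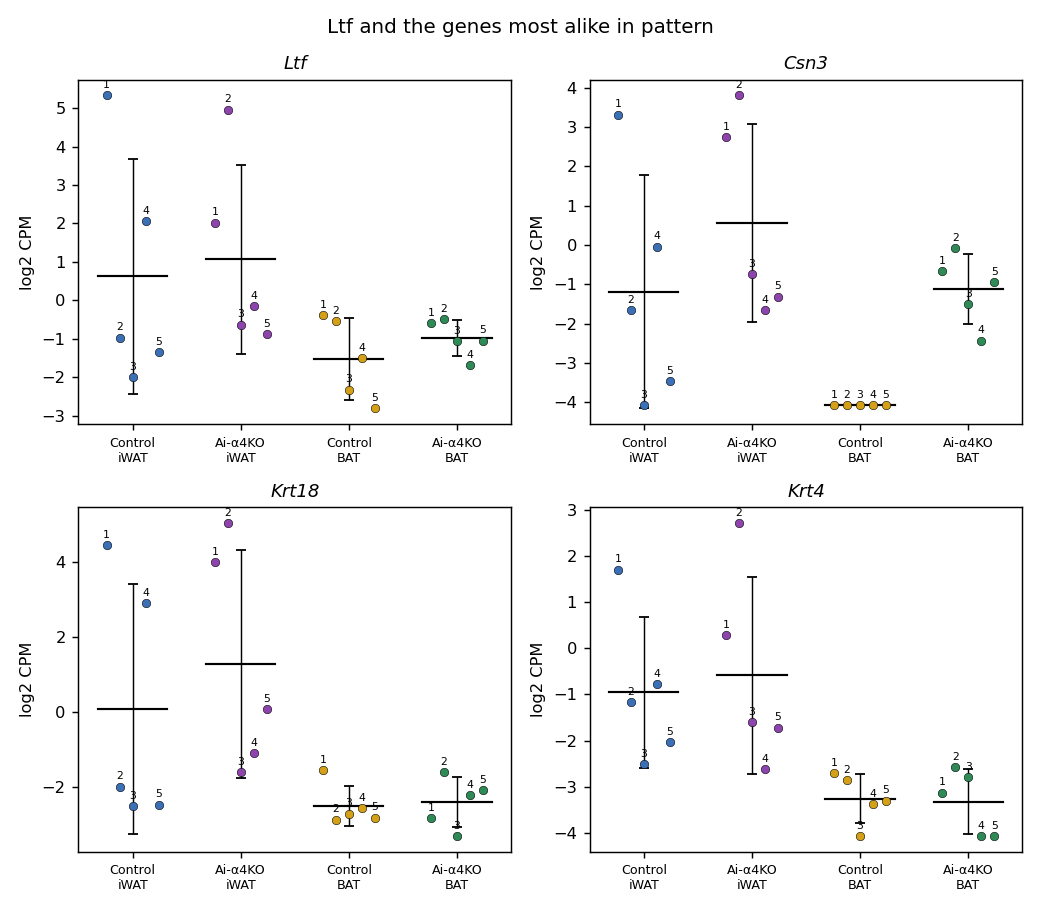
Log2 CPM (vertical axes) of Ltf, Csn3, Krt18 and Krt4 in the 20 libraries by group; points are libraries with their number, bars the group mean and whiskers the SD. The same 4 iWAT libraries, 1 and 4 of Control and 1 and 2 of Ai-α4KO, were highest for Ltf, Csn3 and Krt18.

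Mpo, the chlorinating peroxidase of primary granules, had 718 counts in library 1 of Control iWAT and 0, 0, 1 and 1 in the other 4, which is at or below the floor. It had 10, 14, 5, 2 and 4 counts in Ai-α4KO iWAT, 8, 2, 0, 1 and 0 in Control BAT and 7, 23, 12, 3 and 10 in Ai-α4KO BAT. Mpo passed the filter in neither tissue. In BAT the groups overlapped, the exact permutation test gave p = 0.048, and the fit without filter gave a log2 fold change of 1.84 ± 0.87 (adjusted p = 0.0918), so that a change was not detectable at this depth by the thresholds used. For iWAT the fit without filter gave -4.12 ± 1.82 (adjusted p = 0.0906) with all libraries and 3.23 ± 0.96 (adjusted p = 0.02) without Control library 1, again with the sign set by that library. The latter is against 4 libraries at or below the floor, depends on the prior count and did not pass the threshold. Ctsg, the cathepsin of the same granules, shared the high value of library 1, at 2.86 CPM against at most 0.0385 CPM in the other 4 Control iWAT libraries.

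Elane was the only one of the 9 genes called lower in Ai-α4KO than in Control mice. The call was in iWAT, and in BAT the gene did not pass the filter. It was at 10.4, 1.22, 1.58, 1.29 and 1.56 CPM (491, 38, 41, 44 and 51 counts) in Control iWAT and at 0.337, 0.213, 0.0735, 0.103 and 0.0489 CPM (12, 10, 3, 6 and 2 counts) in Ai-α4KO iWAT. The groups did not overlap, as was the case for 21.2% of all genes tested in that direction. The log2 fold change was -4.3 ± 0.81 (adjusted p = 0.001), and without Control library 1 it was -3.14 ± 0.48 (adjusted p = 0.000382). In BAT, Elane had 1, 2, 4, 16 and 8 counts in Control and 4, 6, 0, 0 and 0 in Ai-α4KO, did not pass the filter and gave -2.01 ± 0.93 without filter (adjusted p = 0.0887). Control BAT was lower than Control iWAT by a log2 difference of -3.73 ± 0.83 (adjusted p = 0.00319), or -2.5 ± 0.52 without library 1 (adjusted p = 0.00279). This call was lost without Control BAT library 3 (adjusted p = 0.0102), with the replicate number as a block (0.0129), by limma on log2(FPKM + 1) (0.0138) and with a filter of at least 10 counts in every library, which Elane did not pass. The interaction was 2.34 ± 1.36 (adjusted p = 0.25), and 1.22 ± 1.14 (adjusted p = 0.511) without Control iWAT library 1. DESeq2 gave no adjusted p for Elane in iWAT, and limma on log2(FPKM + 1) gave -1.45 ± 0.41 (adjusted p = 0.0106).

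Elane (chr10:79886312-79888216) lies between Prtn3, 3139 bases before it, and Cfd, 2636 bases after it, all on the plus strand. Prtn3 encodes proteinase 3 of primary granules, and Cfd, chosen after its values were seen, encodes adipsin, a secreted protease of adipocytes. Prtn3 was at 45.3, 26.8, 35.8, 41.6 and 45.9 CPM in Control iWAT and at 14.5, 10.8, 8.72, 11.7 and 9.05 CPM in Ai-α4KO iWAT. Library 1 was not set apart for Prtn3, and the gene was well above Mpo and Ctsg in the other 4 Control iWAT libraries, where these were at most 0.0306 and 0.0385 CPM. The log2 fold change of Prtn3 was -1.74 ± 0.18 in the iWAT comparison (adjusted p = 1.84e-05) and in BAT it was 0.53 ± 0.45 (adjusted p = 0.33), a difference that passed the interaction test (2.29 ± 0.51, adjusted p = 0.00648). Cfd fell in both tissues, with log2 fold changes of -2.52 ± 0.33 for iWAT (adjusted p = 8.33e-05) and -2.26 ± 0.39 for BAT (adjusted p = 0.000296). Elane had a median of 0.0159% of the counts of Cfd in Control iWAT libraries and 0.00688% in Ai-α4KO iWAT, and the groups overlapped (0.00942 to 0.106% and 0.00389 to 0.012%). In BAT the medians were 0.00605% and 0.0%, also with overlap. All 3 genes were lower in Control BAT than in Control iWAT, with log2 differences of -3.86 ± 0.38 for Prtn3 and -1.65 ± 0.27 for Cfd. The part of Cfd transcription in the counts of its neighbours was not tested.

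**Figure D4:**
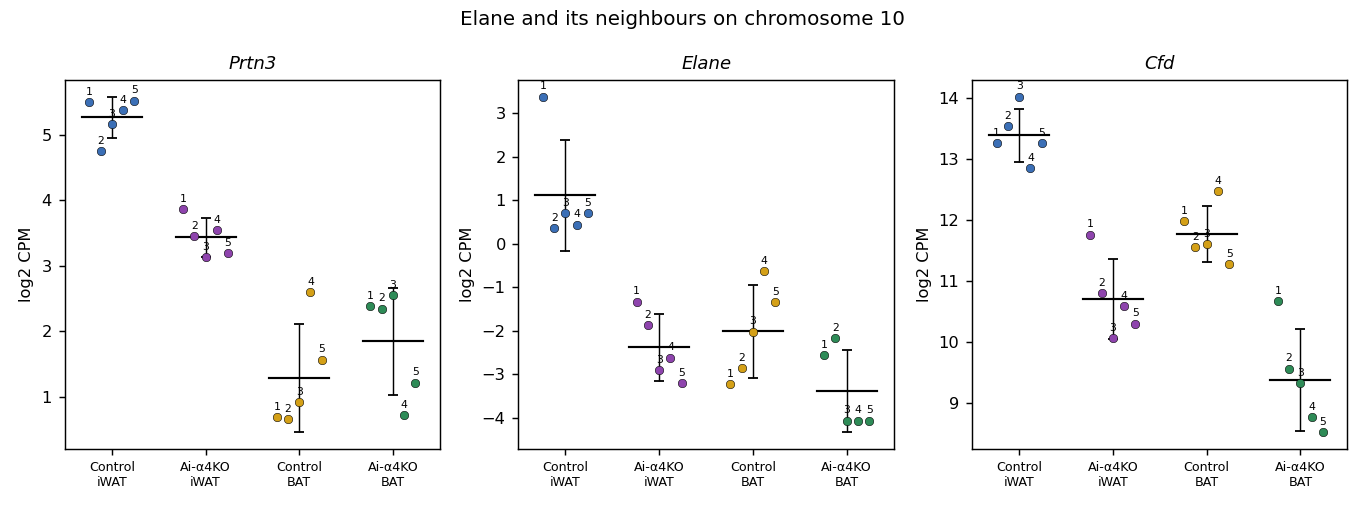
Log2 CPM (vertical axes, each on its own scale) of Prtn3, Elane and Cfd in the 20 libraries by group; points are libraries with their number, bars the group mean and whiskers the SD. All 3 genes were lower in every Ai-α4KO iWAT library than in every Control iWAT library, and library 1 of Control iWAT stood out for Elane alone.

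**Figure D5:**
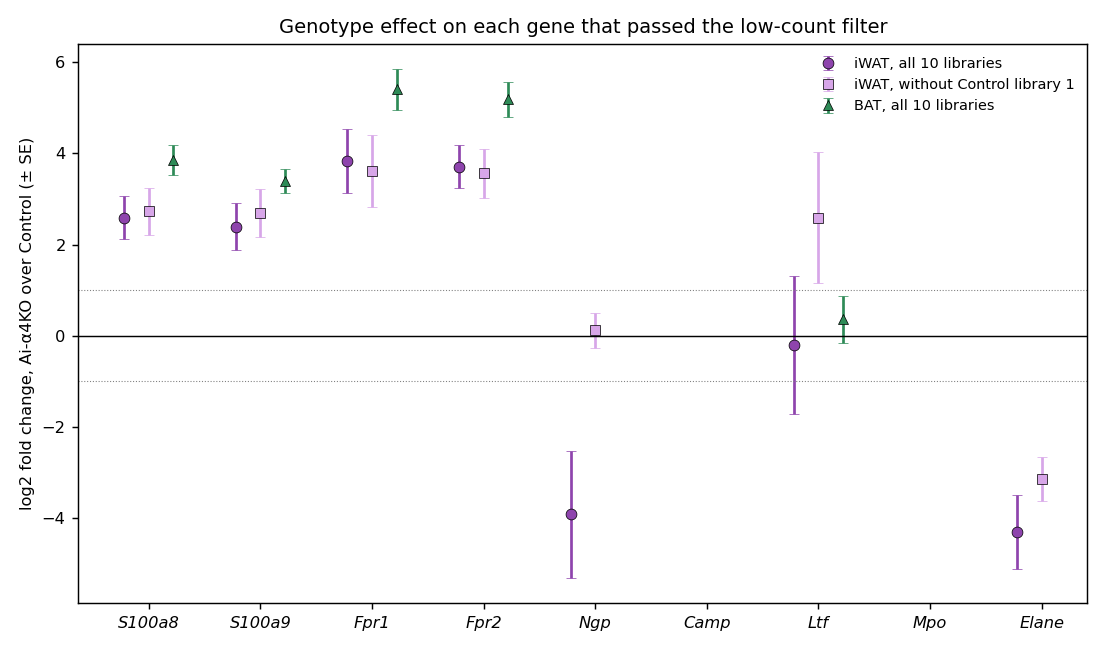
Log2 fold change of Ai-α4KO over Control with its SE (vertical axis) for each of the 9 genes that passed the low-count filter, in iWAT with all libraries, in iWAT without Control library 1 and in BAT; dotted lines mark a 2-fold change. The values of S100a8, S100a9, Fpr1 and Fpr2 moved by less than 1 SE when the library was left out, whereas Ngp went from -3.91 to 0.12 and Ltf from -0.21 to 2.59.

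The signals that draw neutrophils rose with the alarmins. Of 13 attractant and adhesion genes tested in each tissue, 12 rose in iWAT and 11 in BAT, with median log2 fold changes of 2.64 and 3.33. The shares of all genes tested that were called higher were 11.3% in iWAT and 18.2% in BAT. Csf3, the growth factor that releases neutrophils from the marrow, had 0 counts in 4 Control iWAT libraries and 2 in the other, below the floor, and 154 to 819 in Ai-α4KO iWAT, where its rise was called (adjusted p = 5.35e-06). The CXCR2 ligand Cxcl1 rose by 8.3 ± 0.3 in iWAT and 7.74 ± 0.5 in BAT. The ligand Cxcl2 rose by 5.94 ± 0.44 in BAT, and its mean in iWAT was 1.43 CPM in Control and 82.9 CPM in Ai-α4KO libraries. In BAT, Csf3 had 0 to 2 counts in Control and 18 to 104 in Ai-α4KO libraries. Of 6 granulocyte transcription factors, 3 rose and 1 fell in each tissue, and without Control iWAT library 1 the count that rose in iWAT was 2. Of all genes tested, 11.3% were called higher and 10.7% lower in iWAT, and 18.2% and 13.3% in BAT. Cebpa, which the paper lists among adipocyte markers, was lower in both tissues of Ai-α4KO mice. Its mean was 611 CPM in Control iWAT and 182 CPM in Ai-α4KO iWAT, and 587 and 163 CPM in BAT. Cebpe, which drives secondary granule genes in the marrow, rose by 3.86 ± 0.3 in iWAT, and in BAT it had 0 to 5 counts in Control and 31 to 40 in Ai-α4KO libraries. Spi1, which encodes PU.1 of myeloid and B cells, rose by 1.86 ± 0.24 and 3.63 ± 0.26.

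The other S100 genes were called in both directions. Of 8 other S100 genes tested, 2 rose and 1 fell in iWAT and 2 rose and 2 fell in BAT. Of all genes tested, 11.3% were called higher and 10.7% lower in iWAT, and 18.2% and 13.3% in BAT. S100a4 was up by 3.03 ± 0.2 in iWAT and 4.48 ± 0.24 in BAT. S100a1, abundant in muscle, was down by 1.44 ± 0.18 in iWAT. Of 4 receptors of S100A8/A9, Tlr4 alone was called, higher by 1.45 ± 0.17 in iWAT and 1.99 ± 0.19 in BAT. Anxa1, which encodes a ligand of FPR2, rose by 1.08 ± 0.13 in iWAT, by 0.97 and below the 2-fold threshold without Control library 1, and by 2.66 ± 0.23 in BAT. No other formyl peptide receptor gene passed the filter. Of the inhibitors of neutrophil proteases, 3 of 8 tested rose in iWAT and 3 of 3 in BAT. Slpi, which blocks elastase, rose by 4.76 ± 0.5 and 5.86 ± 0.6.

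Markers of other cells moved as well. Of all genes tested, 11.3% were called higher and 10.7% lower in iWAT, and 18.2% and 13.3% in BAT. Of 9 macrophage and monocyte markers, which belong to cells that also transcribe S100a8, S100a9, Fpr1 and Fpr2, 7 rose in iWAT and all 9 in BAT. Their summed level was 1140 to 1920 CPM in Control iWAT against 6970 to 9300 CPM in Ai-α4KO iWAT, and 238 to 537 CPM in Control BAT against 4140 to 6850 CPM in Ai-α4KO BAT. Red blood cell markers, a measure of blood in the tissue, fell in 3 of 6 tested in iWAT and 4 of 6 in BAT, from summed levels of 670 to 1080 CPM to 144 to 389 CPM in iWAT and from 672 to 1340 CPM to 210 to 759 CPM in BAT. Skeletal muscle markers were higher in Ai-α4KO BAT for 7 of 8, with sums of 905 to 9340 CPM in Control and 12400 to 41700 CPM in Ai-α4KO. In iWAT these sums ran from 4.2 to 7430 CPM and overlapped between genotypes.

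The remaining marker lists were smaller or mixed. Adipocyte markers fell in 6 of 8 in iWAT and 5 of 8 in BAT. Of the B cell markers, 1 of 5 tested, Cd79a, fell in iWAT (-5.01 ± 1.36), a call that was lost without Control library 1, and 2 of 4 rose in BAT. T cell markers rose in 3 of 5 tested in BAT, and their sums in iWAT were highest in Control libraries 1 and 4, at 156 and 181 CPM, against 6.58 to 42.7 CPM in the other 8. Mast cell markers rose in 5 of 6 and fell in 1 in BAT, and 1 of 6 fell in iWAT. Siglecf rose among 2 eosinophil markers tested in each tissue, with summed eosinophil levels of at most 14.3 CPM in any library. Keratinocyte markers fell in 2 of 3 tested in iWAT and rose in 1 of 2 in BAT, and their sums stayed at or below 19.1 CPM. The part of these cells in the changes of the 9 genes was not tested.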

How the data were processed

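Stranded poly(A) libraries of 5 Control and 5 Ai-α4KO samples of each tissue were sequenced in pairs. The submitters' processing notes name bcl2fastq 2, STAR 2.5.3a and mm10. The counting tool, annotation release and strand setting were not given in the sources used here. The authors deposited an expected count per gene and library, without normalization, of which 76.6% of the nonzero values are whole, and an FPKM value. All sample columns matched a label. Whether samples came from separate mice, and whether 1 mouse gave both tissues, is not stated, so p-values measure the spread between these samples, which may be partly technical. No 2 libraries were duplicates.

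Expected counts were rounded. The analysis used R 4.3.3 and edgeR 4.0.16 with filterByExpr, TMM and the quasi-likelihood test over all genes, within each tissue, between the Control groups and, for the interaction, over all 20 libraries, with Benjamini-Hochberg adjustment. Thresholds were an adjusted p of 0.01 and a 2-fold change (interaction: p alone). Log2 CPM used a prior count of 2. Exact permutation tests compared single values. The tests were checked on simulated data. Alternatives were DESeq2 1.42.0, limma 3.58.1 on log2 FPKM, other scalings, filters and thresholds, a replicate block, and libraries left out.

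The members and gene lists were chosen with earlier results of these data known. All 9 genes are named, with at most 2 genes of each list and tissue by size of change and the 3 genes most alike in pattern to a member. Retnlg, Wfdc21, Ctsg, Ms4a3, Hp, Cebpa and Cfd were named outside this rule, after their values were seen. Ly6g, Adgre1, Trac and Fpr-rs7 were listed, but no gene under these symbols was found in the deposited table, so they were not analysed here. Columns of the authors' own comparisons were not used. Promoter windows are from RefSeq.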

Additional observations from a re-analysis of the deposited data

Results flagged for a closer look

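In 4 genes, library 1 of Control iWAT lay farther from the other 4 libraries of its group than Dixon's 95% limit for 5 values allows. They were Ngp at 23.9 CPM (1127 counts), Camp at 12.7 CPM (601 counts), Mpo at 15.2 CPM (718 counts) and Elane at 10.4 CPM (491 counts). The gap to the nearest library was 0.91, 0.96, 0.93 and 0.88 of the range of log2 CPM, against a limit of 0.71. In all, 36 sets of 5 libraries were examined, and chance alone would mark about 1 in 20. S100a8, S100a9, Fpr1 and Fpr2 were not set apart in this library, at 20.9, 39.7, 0.678 and 1.74 CPM.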

How the results depend on the processing

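Rises of S100a8, S100a9, Fpr1 and Fpr2 were called in iWAT under every alternative run, which gave 4 genes each time, and in BAT under all but the filter of at least 10 counts in every library, which removed Fpr1 and Fpr2 and left 2. Without normalization factors, 3251 genes were called higher and 1265 lower in BAT, against 2614 and 1910 with TMM, and these 4 kept their direction. The genes lower in iWAT (1559) were 779 by limma on log2(FPKM + 1), and those lower in BAT were 807 by the same test and 1205 with 0.1 added. Elane, the 1 member lower in iWAT, gave a count of 0 by DESeq2, which set its adjusted p to missing, 0 with at least 10 counts in every library and 0 by limma on log2(FPKM + 1). The count was 2, with Ngp, at an adjusted p below 0.05 and in 1 fit of all 20 libraries.

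Only Ngp, Ltf, Camp and Mpo reversed. In the fit without filter, Camp and Mpo in iWAT were 0.62 and 3.23 without Control iWAT library 1, an alternative chosen after seeing the data, against -3.29 and -4.12 with it. Without Control iWAT libraries 1 and 4, the iWAT values of Ngp and Ltf were 0.01 and 4.53, the interactions of Ngp, Ltf and Mpo were -0.75, -4.1 and -1.61, and the differences of Control BAT from Control iWAT were 0.42 for Ngp and 0.15 for Ltf. Ltf in iWAT was 0.07 and 0.43 by limma with 1 and 0.1 added to FPKM, and its interaction -0.02 by the latter. Leaving out 1 library at a time gave, in iWAT, -4.23 to 0.12 for Ngp and -2.58 to 2.59 for Ltf. The interaction ran from -0.85 to 3.49 for Ngp, -2.13 to 3.02 for Ltf and -1.19 to 7.55 for Mpo, and Control BAT minus Control iWAT from -3.9 to 0.51 for Ngp. The low end for each interaction, and the iWAT values of 0.12 and 2.59, came without Control iWAT library 1.

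The interaction calls moved most, without reaching any of the 9 genes. Against 496 higher and 244 lower, there were 1257 and 391 by DESeq2 and 1432 and 865 at an adjusted p below 0.05. The lower calls were 115 without normalization factors, 147 with upper-quartile scaling, 130 without filter, 127 with at least 10 counts in every library, 136 by limma with 0.1 added and 68 without Control iWAT libraries 1 and 4. Leaving out 1 library gave 309 (Control BAT 3) to 853 (Ai-α4KO iWAT 1) higher and 93 (Ai-α4KO iWAT 5) to 264 (Control iWAT 3) lower. For Control BAT against Control iWAT, limma on log2(FPKM + 1) called 532 higher and 1241 lower, against 1030 and 2092. The members lower there (2) were 0 with that test, 0 with at least 10 counts in every library, 4 at an adjusted p below 0.05 and 1 to 2 with 1 library left out, Elane being lost without Control BAT library 3 (adjusted p = 0.0102). The cause was not tested.

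Libraries of the same number did not all deviate together (r from -0.45 to 0.24 over 20 pairs, of which 5 correlated best with their own number), and whether they came from 1 mouse is not stated, so that no pairing was assumed. With the replicate number as a block, the calls were 1584 higher and 1461 lower genes for iWAT and 2509 and 1834 for BAT, and 4 members were higher in each tissue. The interaction gave 340 and 194. Ltf in iWAT was 0.02, and of the members lower in Control BAT 1 was left, Fpr2.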

Other observations

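Elane and Prtn3 were detected in Control iWAT largely without the other primary granule genes. In libraries 2 to 5, Prtn3 was at 26.8 to 45.9 CPM and Elane at 1.22 to 1.58 CPM, while Mpo had 0 or 1 counts, and Ctsg and Ms4a3 were at most at 0.0385 and 0.0294 CPM. In library 1, where Mpo, Ctsg and Ms4a3 were at 15.2, 2.86 and 1.42 CPM, Prtn3 was 1.21 times the mean of the other 4 libraries and Elane 7.35 times. The genes most like Elane within groups were Shroom3 (r = 0.878), C77080 (0.877) and Emilin1 (0.872). With library 1 left out, these values were 0.816, 0.803 and 0.793.

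For Ngp, Camp and Mpo, the likeness to other genes was lower without library 1. Ngp was most like Amz1 (r = 0.805), Tgfa and Lrmp, and without that library r with Amz1 was 0.489. Camp was most like Tgfa (0.845, and 0.626 without it), and Mpo most like Slc15a3 (0.885, and 0.642 without it).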
